A study of Mus musculus with 6 samples.

Results

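The genes described here are 60 nucleolar factors of ribosome biogenesis, taken by symbol from the 15982 genes of the authors' comparison of Bub1 cKO with Ctrl cells. All 60 symbols were present, each in 1 row. They were sorted by known role into 5 RNA polymerase I genes, 8 genes of small nucleolar ribonucleoproteins (snoRNPs), 23 small subunit factors, 19 large subunit factors and 5 nucleolar proteins with several roles. The cells were primary mouse bone marrow-derived macrophages, grown for 3 days with the growth factor M-CSF, and for 2 further days with M-CSF plus RANKL, used at 20 and 50 ng/ml respectively. RANKL is the cytokine that directs macrophage precursors towards osteoclasts. Both genotypes received this treatment. The Ctrl mice and the Bub1 cKO mice, in whose myeloid cells the kinase Bub1 of the mitotic checkpoint was deleted, gave 3 libraries each. The Cre driver, the strain, the age and whether the libraries came from separate animals are not stated in the sources at hand. What the p-values weigh is thus only the variation among these libraries, and that may be technical.

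Ribosomes are assembled in the nucleolus. RNA polymerase I transcribes the long precursor of ribosomal RNA, snoRNPs modify it at selected bases, and separate sets of helicases, GTPases and scaffold proteins fold and cut it into the precursors of the small and the large subunit. The genes of these factors are commonly regulated together with cell growth, and the transcription factor Myc is a well-known activator of many of them through the E-box CACGTG.

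The data give 1 expression value per gene and genotype, read as TPM, a measure of transcript abundance scaled to the same total in each genotype, and no value per library. The table also gives a log2 change, computed as log2 of (Bub1 cKO + 1)/(Ctrl + 1), and the statistic, standard error and p of a per-gene test. Multiplying the statistic by its standard error gives back the change the test estimated, here called the test's own change. Its 95% interval is taken as 1.96 standard errors on either side. A gene is called when the authors' adjusted p is under 0.05. The standard error and p belong to the test's own change, not to the deposited log2 change. Levels are not compared between genes as abundance, and ranges of TPM serve only to set a gene's precision beside that of other genes, because the libraries hold tags from the 3' end of transcripts and the length correction is not known. In bulk RNA, fewer cells of a type and less RNA per cell cannot be told apart.

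The promoters of 3 members are shown first, because they carry the letters searched for below or belong to the one called gene. They run from 250 bases before to 50 bases after the annotated start, 5' to 3' on the gene's strand (RefSeq, GRCm38.p6), with CACGTG in capitals. Wdr43 (chr17:71615965-71616264, plus strand) holds 1 copy that begins 17 bases after the start. Gtpbp4 (chr13:8995963-8996262, minus strand) has no copy in this window. Rrn3 (chr16:13780449-13780748, plus strand) holds 2 copies, the first of which begins 215 bases before the start. Gtpbp4 and Rrn3 were chosen after their values were seen.
Wdr43: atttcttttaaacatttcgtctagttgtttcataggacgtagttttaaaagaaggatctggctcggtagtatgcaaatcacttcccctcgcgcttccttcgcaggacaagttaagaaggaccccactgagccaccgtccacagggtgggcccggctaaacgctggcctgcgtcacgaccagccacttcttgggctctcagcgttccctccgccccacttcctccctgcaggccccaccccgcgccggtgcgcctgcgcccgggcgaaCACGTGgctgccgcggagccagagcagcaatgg
Gtpbp4: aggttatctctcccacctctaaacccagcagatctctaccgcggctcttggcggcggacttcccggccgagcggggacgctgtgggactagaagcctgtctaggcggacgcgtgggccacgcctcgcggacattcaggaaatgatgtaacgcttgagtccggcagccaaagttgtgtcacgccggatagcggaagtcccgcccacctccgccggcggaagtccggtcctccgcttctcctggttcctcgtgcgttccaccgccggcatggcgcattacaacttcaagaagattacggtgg
Rrn3: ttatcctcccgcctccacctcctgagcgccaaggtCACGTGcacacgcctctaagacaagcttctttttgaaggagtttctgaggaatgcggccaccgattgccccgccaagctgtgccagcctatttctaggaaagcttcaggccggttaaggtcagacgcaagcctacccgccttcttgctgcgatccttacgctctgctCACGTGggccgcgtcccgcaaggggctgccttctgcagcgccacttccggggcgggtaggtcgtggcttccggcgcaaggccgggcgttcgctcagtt

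Most of the factors had a higher expression value in Bub1 cKO than in Ctrl. Statistics were positive in 49 of the 60 members and negative in 11, and the median of their log2 changes was 0.29. Over all 15982 genes 49.9% of statistics were positive and the median log2 change was -0.01. Only Gtpbp4, a GTPase of large subunit maturation, was called, and no member was called lower. The background over all genes was 0.113% called higher and 0.0688% called lower (0.181% in either direction). Counting unadjusted p-values under 0.05 gave 13 members higher and 0 lower, against 2.35% of all genes higher and 2.46% lower. The members lay above 2 TPM, where tests are more precise than in the whole table (median standard error 0.44 against 0.76). Among the 9508 genes whose mean was 2 TPM or more, 3.24% were higher and 3.42% lower at this p, and 49.8% of statistics were positive.

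**Figure D1:**
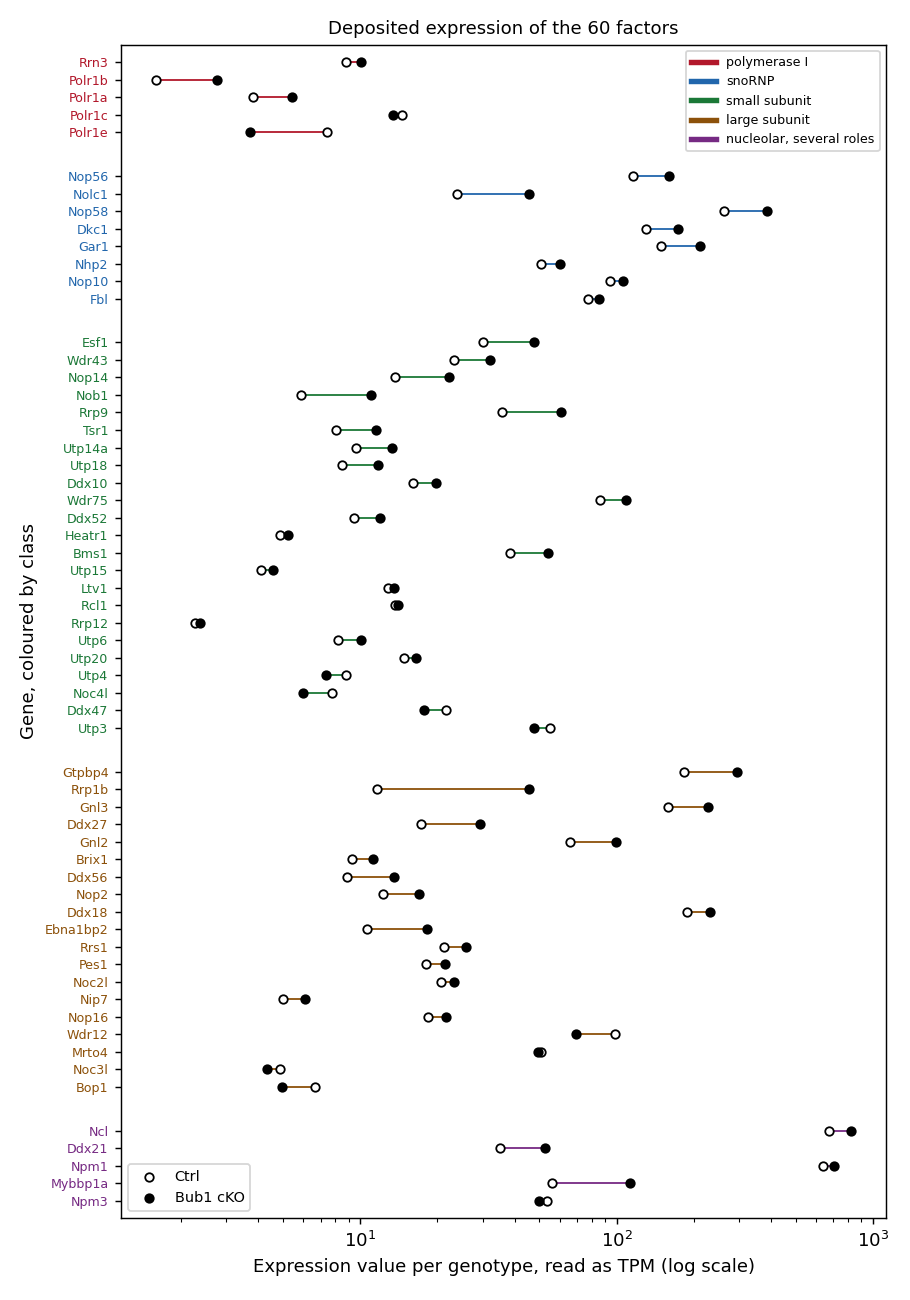
Deposited expression value of each of the 60 factors in Ctrl (open circles) and Bub1 cKO (filled circles), on a log axis in TPM, by class and within a class by test statistic. In 49 of the 60 factors the Bub1 cKO value lies to the right of the Ctrl value, and all 8 snoRNP genes are among them.

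The 5 RNA polymerase I genes had no member at an unadjusted p under 0.05, in either direction, and their intervals were wide. Of the 4349 genes between 2 and 10 TPM, the range of all 5 but Polr1c, 87 (2.00%) were higher and 118 lower at this p. A count of 0 among 5 genes is therefore not read as a trait of the class. By the authors' deposited table Polr1a, the largest subunit of the enzyme, stood at 3.81 TPM for Ctrl against 5.41 TPM for Bub1 cKO. Polr1b, the second catalytic subunit, stood at 1.60 and 2.76 TPM by the authors' deposited table. Rrn3, the initiation factor that brings the polymerase to its promoter in response to growth signals, stood at 8.82 and 10.1 TPM by the authors' deposited table. These 3 genes had positive statistics, and Polr1c and Polr1e had negative ones.

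Polr1c, a subunit shared with RNA polymerase III, stood at 14.6 TPM for Ctrl against 13.4 TPM for Bub1 cKO by the authors' deposited table. Polr1e, a subunit of the part that helps the enzyme initiate and elongate, had the lowest log2 change of the members by the authors' deposited table, -0.84, with 7.44 and 3.72 TPM. The 95% interval of the test's own change of Polr1e ran from -3.08 to 1.07, so that neither a fall nor a rise of 2-fold lies outside it. For Polr1b it ran from -0.60 to 2.34, for Polr1a from -0.40 to 1.32, for Rrn3 from -0.21 to 1.15 and for Polr1c from -1.06 to 0.82. The median log2 change of the 5 genes was 0.18 and the median of the test's own change 0.46.

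The snoRNP genes all had positive statistics, 8 of 8, with a median log2 change of 0.44. At an unadjusted p under 0.05 there were 4 of 8 (Nop56, Nolc1, Nop58 and Dkc1), and none was called. Of all genes of at least 10 TPM 4.28% were higher at this p. Box C/D snoRNPs methylate ribosomal RNA. Their core scaffold Nop56 stood at 116 TPM for Ctrl against 160 TPM for Bub1 cKO by the authors' deposited table (change on the log2 scale 0.47, test's own change 0.57 with standard error 0.19, unadjusted p = 0.003, adjusted p = 0.432). Its partner Nop58 stood at 262 and 384 TPM by the authors' deposited table (change on the log2 scale 0.55, test's own change 0.45 with standard error 0.17, unadjusted p = 0.008). The methyltransferase Fbl, the enzyme of the same particle, stood at 77.2 and 85.0 TPM by the authors' deposited table, with an interval of the test's own change from -0.37 to 0.65. Both scaffold genes thus had intervals above 0, at 0.19 to 0.94 for Nop56 and 0.12 to 0.78 for Nop58, while the interval of Fbl spanned 0 and overlapped both.

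Box H/ACA snoRNPs convert uridines of ribosomal RNA to pseudouridine. Their enzyme Dkc1 (dyskerin) stood at 131 TPM for Ctrl against 174 TPM for Bub1 cKO by the authors' deposited table (change on the log2 scale 0.41, test's own change 0.33 with standard error 0.16, unadjusted p = 0.036). The other core proteins of the particle missed this p: the authors' deposited table has Gar1 at 148 and 211 TPM, Nhp2 at 50.7 and 59.9 TPM and Nop10 at 93.8 and 106 TPM. Nolc1, a chaperone that binds both kinds of snoRNP on their way to the nucleolus, stood at 23.9 and 45.7 TPM by the authors' deposited table, with the largest log2 change of the class (0.91, unadjusted p = 0.004, adjusted p = 0.445). The test's own change of Nolc1 was 0.71 (standard error 0.24), with an interval from 0.23 to 1.18.

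Of the 23 small subunit factors 18 had a positive statistic, with a median log2 change of 0.27. An unadjusted p under 0.05 was reached by 3 (Esf1, Wdr43 and Nop14), and none was called. Of all genes at or above 2 TPM 3.24% were higher at this p. Esf1, a nucleolar factor of early pre-rRNA processing, stood at 30.0 TPM for Ctrl against 47.4 TPM for Bub1 cKO by the authors' deposited table (change on the log2 scale 0.64, test's own change 0.67 with standard error 0.20, unadjusted p = 0.001, adjusted p = 0.265). Nop14, which works with Noc4l in the small subunit precursor, stood at 13.6 and 22.1 TPM by the authors' deposited table (change on the log2 scale 0.66, unadjusted p = 0.026). Its partner Noc4l stood at 7.79 and 5.96 TPM by the authors' deposited table, and the interval of its own change, -1.38 to 0.59, overlapped that of Nop14, 0.08 to 1.31.

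The members of the UTP-A complex, which binds the nascent transcript first, had overlapping intervals. Wdr43 stood at 23.3 TPM for Ctrl against 32.1 TPM for Bub1 cKO by the authors' deposited table (change on the log2 scale 0.45, test's own change 0.47 with standard error 0.20, unadjusted p = 0.021). By the authors' deposited table Wdr75 stood at 86.5 and 109 TPM, Heatr1 at 4.85 and 5.25 TPM, Utp15 at 4.11 and 4.58 TPM and Utp4 at 8.78 and 7.33 TPM. The intervals of the test's own change ran from -0.33 to 1.25 for Wdr75, -0.35 to 1.15 for Heatr1, -0.66 to 1.01 for Utp15, -1.09 to 0.61 for Utp4 and 0.07 to 0.86 for Wdr43. Of the UTP-B complex, the authors' deposited table has Utp18 at 8.52 and 11.7 TPM and Utp6 at 8.21 and 10.1 TPM.

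Another group of small subunit factors had higher values in Bub1 cKO, but each interval of the test's own change spanned 0. Rrp9, the protein of the U3 snoRNP that guides early cuts, stood at 35.7 TPM for Ctrl against 60.8 TPM for Bub1 cKO by the authors' deposited table (change on the log2 scale 0.75, test's own change 0.77 with standard error 0.53). The GTPase Bms1 stood at 38.4 and 53.9 TPM and its partner Rcl1 at 13.7 and 14.0 TPM by the authors' deposited table. Among late factors, the authors' deposited table has the endonuclease Nob1 at 5.88 and 11.0 TPM, the Bms1-related protein Tsr1 at 8.05 and 11.6 TPM and the assembly factor Ltv1 at 12.9 and 13.5 TPM. Nob1 had the largest log2 change of the class (0.80), but its standard error of 0.59 gave an interval of the own change from -0.23 to 2.10.

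The lowest statistics of the class belonged to Utp3 and the helicase Ddx47. Utp3 stood at 54.9 and 47.5 TPM and Ddx47 at 21.7 and 17.7 TPM by the authors' deposited table, with unadjusted p of 0.411 and 0.417. The other helicases, Ddx10 and Ddx52, stood at 16.1 against 19.7 TPM and 9.44 against 12.0 TPM by the authors' deposited table. Utp14a was at 9.64 and 13.3 TPM, Utp20 at 14.8 and 16.6 TPM and Rrp12 at 2.28 and 2.37 TPM by the authors' deposited table. For Utp20 the log2 change of 0.15 and the test's own change of -0.03 had opposite signs.

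Large subunit factors held the one called gene. Of 19 members 16 had a positive statistic, with a median log2 change of 0.28. An unadjusted p under 0.05 was reached by 4 (Gtpbp4, Rrp1b, Gnl3 and Ddx27), beside 3.24% of all genes at or above 2 TPM that were higher at this p. Gtpbp4 (ENSMUSG00000021149.8, chromosome 13, 8966331 to 8996083 on the minus strand, GRCm38) rose, with 184 TPM for Ctrl against 294 TPM for Bub1 cKO by the authors' deposited table, and its log2 change was 0.68 (standard error 0.17, unadjusted p = 5e-05, adjusted p = 0.035). The 95% interval of the test's own change ran from 0.35 to 1.00.

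The related GTPases Gnl2 and Gnl3 gave values in the same direction without passing. Gnl3 (nucleostemin, a GTP-binding protein abundant in proliferating cells) stood at 159 and 227 TPM by the authors' deposited table (change on the log2 scale 0.51, test's own change 0.64 with standard error 0.23, unadjusted p = 0.004, adjusted p = 0.477). Gnl2 stood at 65.9 and 99.3 TPM by the authors' deposited table, with an unadjusted p of 0.076. Of the helicases, Ddx27 stood at 17.2 and 29.2 TPM by the authors' deposited table (change on the log2 scale 0.73, test's own change 0.76 with standard error 0.33, unadjusted p = 0.020). Ddx18 was at 189 and 231 TPM and Ddx56 at 8.92 and 13.6 TPM by the authors' deposited table, neither with an unadjusted p under 0.05.

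Rrp1b, a nucleolar protein of pre-rRNA processing, had the largest log2 change of the 60 members. It stood at 11.6 TPM for Ctrl against 45.3 TPM for Bub1 cKO by the authors' deposited table, giving 1.88 on the log2 scale with an adjusted p of 0.411. The test's own change was smaller, 1.12 with an interval from 0.38 to 1.86. The deposited change of Rrp1b lies above that interval.

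The PeBoW complex, which processes the large subunit precursor, gave no common direction in the expression values. By the authors' deposited table Pes1 stood at 18.0 and 21.3 TPM, Bop1 at 6.67 and 4.97 TPM and Wdr12 at 98.5 and 69.2 TPM. Bop1 had the lowest statistic of the large subunit class, with an interval of the own change from -1.35 to 0.52. Wdr12 had a log2 change of -0.50 beside a positive statistic, and the interval of its own change, -0.35 to 0.62, does not hold the deposited change. No direction is therefore read for Wdr12.

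The remaining large subunit factors had unadjusted p-values above 0.1. Noc2l and Noc3l, which form a complex, stood at 20.6 against 23.3 TPM and 4.86 against 4.34 TPM by the authors' deposited table. Brix1 and Ebna1bp2, which act together early, stood at 9.27 against 11.2 TPM and 10.6 against 18.2 TPM by the authors' deposited table. The rRNA methyltransferase Nop2 stood at 12.2 and 16.9 TPM, and Rrs1, which brings in the small ribosomal RNA of the large subunit, at 21.2 and 25.9 TPM by the authors' deposited table. Nip7 was at 5.00 and 6.07 TPM, Nop16 at 18.4 and 21.6 TPM and Mrto4, a placeholder for the ribosomal stalk, at 50.7 and 49.3 TPM by the authors' deposited table.

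Among the 5 nucleolar proteins with several roles, Ncl and Ddx21 had an unadjusted p under 0.05 and Npm3 a negative statistic. Of all genes of at least 10 TPM 4.28% were higher at this p. Ncl (nucleolin), which binds nascent ribosomal RNA and its chromatin, stood at 671 TPM for Ctrl against 821 TPM for Bub1 cKO by the authors' deposited table (change on the log2 scale 0.29, test's own change 0.38 with standard error 0.12, unadjusted p = 0.001, adjusted p = 0.263). The helicase Ddx21, which acts in rRNA transcription and processing, stood at 35.0 and 52.4 TPM by the authors' deposited table (change on the log2 scale 0.57, test's own change 0.58 with standard error 0.18, unadjusted p = 0.001, adjusted p = 0.275). The histone chaperone Npm1 stood at 638 and 706 TPM and its relative Npm3 at 53.3 and 49.9 TPM by the authors' deposited table. Mybbp1a, a repressor of rRNA transcription, stood at 55.8 and 113 TPM by the authors' deposited table (change on the log2 scale 1.00), but the test's own change was 0.24, with an interval from -0.18 to 0.66.

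**Figure D2:**
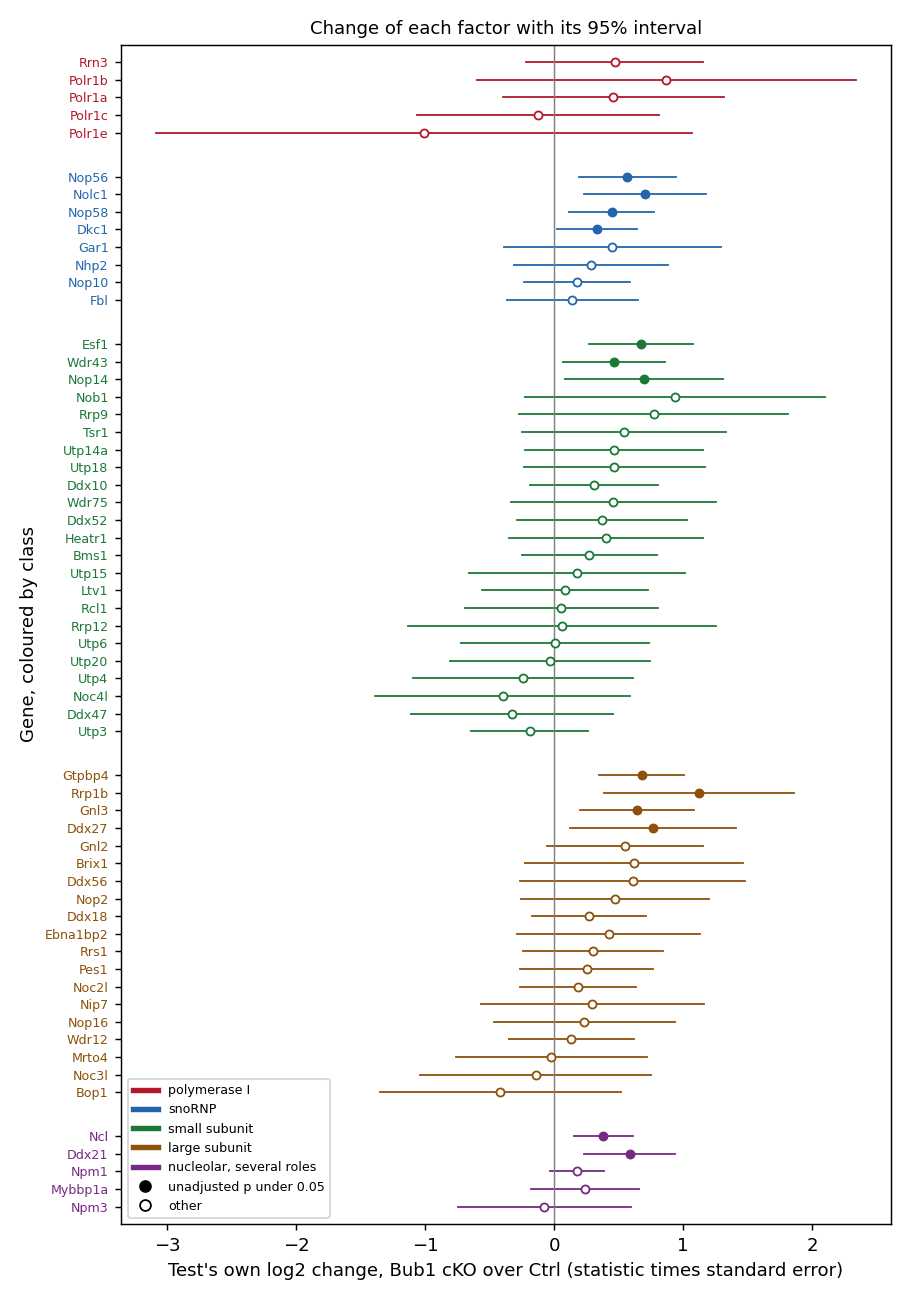
The test's own log2 change of each factor (points) with its 95% interval (lines, 1.96 standard errors on either side). Filled points have an unadjusted p under 0.05. All 13 filled points lie to the right of 0. None is among the 5 genes of the polymerase I class, and 2.00% of all genes between 2 and 10 TPM were higher at this p. The widest interval belongs to Polr1e (-3.08 to 1.07).

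Set side by side, the median log2 changes were 0.18 for polymerase I, 0.27 for the small subunit, 0.28 for the large subunit and 0.44 for snoRNPs. The median standard error of a single gene was 0.48 in the polymerase I class, 0.38 and 0.36 in the small and large subunit classes and 0.23 in the snoRNP class. The medians were not tested against each other. The classes also differed in level, with medians of 5.58, 13.2, 21.9 and 119 TPM in the order of the log2 changes above. Their counts at an unadjusted p under 0.05 were thus not compared with each other. The means of the polymerase I genes ran from 2.18 to 14.0 TPM. With Mybbp1a and Ddx21 counted among the polymerase I genes their median log2 change was 0.41, and on members of at least 10 TPM it rested on Polr1c alone, at -0.12.

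**Figure D3:**
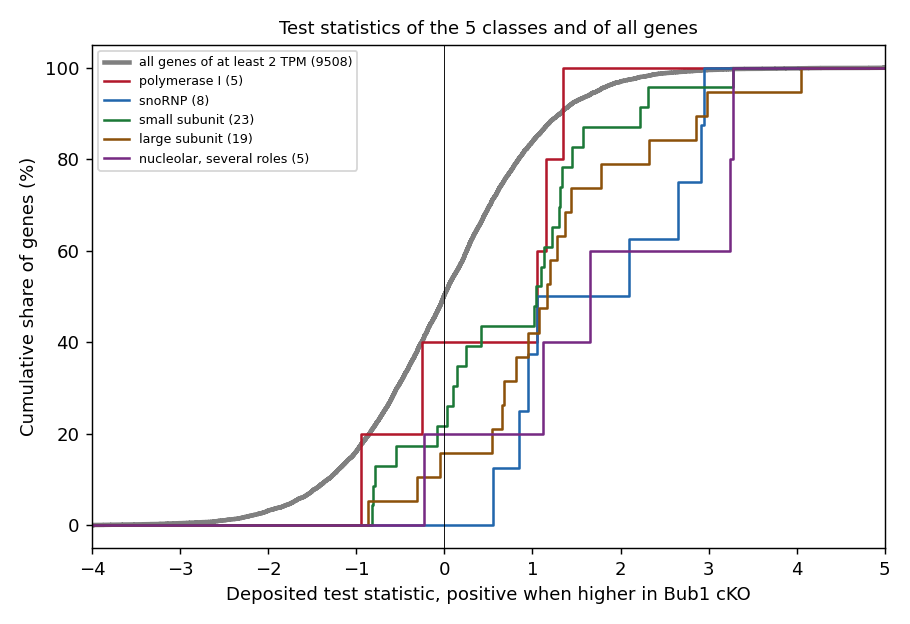
Cumulative share of genes (vertical axis, percent) by deposited test statistic (horizontal axis), for the 5 classes and for the 9508 genes whose mean was 2 TPM or more. The curve of all genes crosses 0 near its middle, with 49.8% of statistics positive, and the snoRNP curve starts to the right of 0.

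Where a member's level was low, fewer members reached an unadjusted p under 0.05. Of the 18 members whose mean was 50 TPM or more 6 did so, 33.3%, beside 5.18% of all genes at that level that were higher at this p. Of the 27 members between 10 and 50 TPM 7 did, 25.9%, beside 3.80% of all genes at that level. Of the 15 members under 10 TPM 0 did, beside 2.00% of genes between 2 and 10 TPM. The median standard errors of the members in these ranges were 0.23, 0.35 and 0.44, and 10 of the 15 low members still had a positive statistic.

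The 2 forms of change were close for most members. They differed by more than 1 standard error in 3 (Rrp1b, Mybbp1a and Wdr12) and had opposite signs in 2 (Wdr12 and Utp20). Of the 9508 genes at or above 2 TPM, 1184 and 1240 did so. The median of the test's own change over the 60 members was 0.32.

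**Figure D4:**
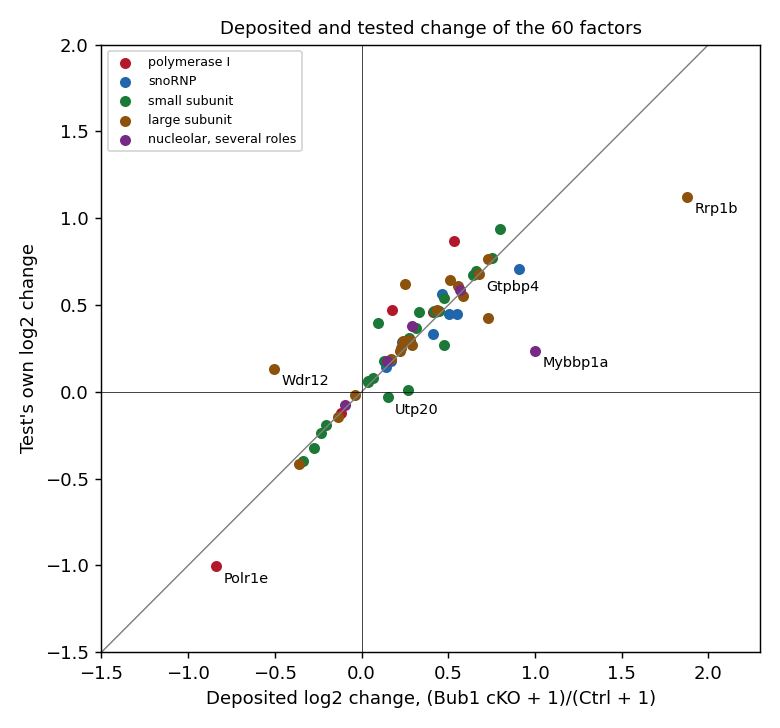
Deposited log2 change (horizontal axis) against the test's own log2 change (vertical axis) of the 60 factors, coloured by class, with the line of equality in grey. Rrp1b and Mybbp1a lie below the line, at 1.88 against 1.12 and 1.00 against 0.24, and Wdr12 lies in the quadrant of opposite signs.

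A property that was not used to choose the members is that some of these genes also host snoRNA genes, whose products guide the snoRNPs. By GENCODE M21, 7 members contain within their bounds at least 1 annotated snoRNA gene on their own strand: Nop56 (5), Nop58 (4), Gnl3, Ncl and Wdr43 (3 each), Tsr1 (2) and Dkc1 (1). All 7 had a positive statistic, with a median log2 change of 0.47, and 6 of them had an unadjusted p under 0.05. Of the 53 members with no such gene 42 had a positive statistic, with a median of 0.25, and 7 had an unadjusted p under 0.05. The host members had lower errors, with a median standard error of 0.19 against 0.36. The other 234 snoRNA hosts of the table had a median log2 change of 0.04, with 124 positive statistics. An unadjusted p under 0.05 was reached by 10 with a positive (4.27%) and 5 with a negative statistic, beside 2.35% and 2.46% of all genes. Among genes at or above 2 TPM these shares were 3.24% and 3.42%. The median level of the 234 hosts was 12.8 TPM, against 3.67 TPM for all genes. The 128 of them with a mean of at least 10 TPM had a median of 0.05, with 73 positive statistics, and 8 (6.25%) and 2 genes at this p in the same order. Of all 5159 genes at that level 221 (4.28%) were higher and 207 lower at this p.

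The E-box CACGTG, which reads the same on both strands, was searched in the 300-base promoters. A promoter was at hand for 53 members, and 10 of them (18.9%) held the motif. The share was 11.0% of the genes of the table, 12.7% of those with a mean of at least 10 TPM and 8.09% of all genes with a promoter. These shares were not tested against each other. The motif was found in 1 of the 13 members with an unadjusted p under 0.05 (Wdr43) and in 9 of the 40 others. By class it was in 6 of 21 small subunit genes, 2 of 16 large subunit genes, 1 of 5 polymerase I genes, 0 of 7 snoRNP genes and 1 of 4 of the remaining class.

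Genes of the same pathway outside the 60 were listed by function, with earlier results of these data known. Of these 96 genes 63 had a positive statistic, with a median log2 change of 0.23, and none was called. An unadjusted p under 0.05 was reached by 7 in the higher (7.29%) and 0 in the lower direction. At this p 2.35% of all genes were higher and 2.46% lower, and 3.24% and 3.42% of the genes at or above 2 TPM. The 38 other large subunit factors had 30 positive statistics and a median of 0.25, and 5 of the 7 genes belonged to them. The smallest p-values were those of Nol8, at 44.7 and 72.1 TPM (log2 change 0.68, unadjusted p = 0.002), and the rRNA methyltransferase-like protein Ftsj3, at 20.8 and 29.3 TPM (log2 change 0.47, unadjusted p = 0.006), by the authors' deposited table. The 11 other polymerase I genes had 9 positive statistics and a median of 0.32 (0.23 for the test's own change). Ttf1, a termination factor, and the subunit Polr1d had an unadjusted p under 0.05. The log2 change of Ttf1, 2.27, lies above the interval of its own change, 0.08 to 1.45. Deposited and own change differed by more than 1 standard error in 4 of these 11 genes and in 14 of the 96. The 33 other small subunit factors did not lean either way, with 16 positive and 17 negative statistics and a median of 0.09 (0.00 for the test's own change). Of the 14 genes of the RNA exosome, the nuclease that trims precursors, 8 had a positive statistic, and the median was -0.07 for the log2 change but 0.11 for the test's own change. The smallest p-values among negative statistics were those of Pelp1, at 10.7 and 7.61 TPM, and Nsa2, at 489 and 439 TPM (unadjusted p = 0.146 and 0.203), by the authors' deposited table.

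The proteins of the cytosolic ribosome did not share this direction, and those of the mitochondrial ribosome had a smaller median than the 60 factors. Of 80 cytosolic ribosomal protein genes 29 had a positive and 51 a negative statistic. Their median log2 change was -0.06, and an unadjusted p under 0.05 was reached by 0 in the higher and 1 in the lower direction. Their median standard error was 0.11, lower than that of the 60 factors at 0.35. Of 78 mitochondrial ribosomal protein genes 50 had a positive statistic, the median was 0.09, and 3 (3.85%) were higher and 0 lower at this p. That share lies near the 3.24% of genes at or above 2 TPM that were higher. The difference between these lists and the 60 factors was not tested.

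The labelled cell type and the makeup of the cultures were checked with marker genes. All 9 macrophage and all 10 osteoclast markers had a mean of at least 1 TPM. Bub1 stood at 6.73 TPM for Ctrl against 5.32 TPM for Bub1 cKO by the authors' deposited table (log2 change -0.29, unadjusted p = 0.442). This value does not test the deletion, since tags from any exons left in place would be counted too. Beside the values of the nucleolar factors, osteoclast markers had 8 of 10 positive statistics (summed level 2025 TPM for Ctrl against 2342 TPM for Bub1 cKO) and macrophage markers 7 of 9 negative ones (2646 and 1254 TPM). Lyz2, the gene of lysozyme, carries that macrophage sum: it fell, with a change on the log2 scale of -1.49 by the authors' deposited table (adjusted p = 0.00033), and the other 8 markers summed to 505 and 492 TPM. Of 10 erythroid markers 6 were in the table, and all 6 had positive statistics and sums of 19.6 and 358 TPM, with Alas2 and Slc4a1 listed at 0 in Ctrl. Of the 11 neutrophil markers with a row, 10 had positive statistics, with sums of 97.7 and 234 TPM and Elane, Camp and Retnlg listed at 0 in Ctrl. B cell, T cell and stromal markers summed to at most 6.62 TPM in either genotype, and no mast cell marker was among the genes analysed. The part of these cell types in the values of the nucleolar factors was not tested.

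Position and sequence copies bear on some members. Bub1 lies on chromosome 2 from 127801122 to 127831865 (GRCm38), and 5 members lie on the same chromosome, Polr1b at a distance of 1.30 Mb, Nop56 at 2.47 Mb, Esf1 at 12.3 Mb, Nop10 at 15.5 Mb and Ddx27 at 39.2 Mb. Whether alleles carried along with the targeted Bub1 locus differ in these genes was not tested. Without these 5 genes the median log2 change was 0.27, and 10 members had an unadjusted p under 0.05. In 6 members (Ddx18, Fbl, Mrto4, Nop56, Npm1 and Wdr12) the last 300 bases of a transcript match a processed pseudogene at 95% identity or more over at least 100 bases, so the split of reads is uncertain. Without them the median was 0.30 and 12 members had an unadjusted p under 0.05. In 4 further members (Ddx27, Noc2l, Nop58 and Polr1b) this stretch matches transcripts of other genes by the same limits, with 28 such genes in the table for Polr1b, and Glrx2, at 139 and 131 TPM by the authors' deposited table, among those for Nop58. Without all 10 the median was 0.29, and 10 members had an unadjusted p under 0.05. For Npm1, 5 such pseudogenes are themselves in the table, and the gene and its copies together summed to 831 TPM for Ctrl against 913 TPM for Bub1 cKO, a log2 change of 0.14, as for Npm1 alone.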

How the data were processed

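Per the labels' protocols, 6 libraries, 3 per genotype, were built with the QuantSeq kit for mRNA 3' ends, each starting from 25 ng RNA. The authors deposited 1 comparison table, whose header names RaNA-seq, a web service. Aligner, build, annotation and test: not given in the sources used here. Library depth is unknown. The expression values, deposited as 1 value per genotype with no unit named, were treated as TPM, since they sum to 999891 and 999954, although CPM would sum alike. The deposited log2 change equals log2 of the ratio with a pseudocount of 1 within 0.002 in 15982 genes. The statistic and its standard error are scores of the deposited test, and the deposited p-value follows from the statistic by a normal distribution within 0.001 in 15974 genes.

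The planned per-library model could not be fitted to a comparison table and gave way to the adjusted p of the authors, with 0.05 as its limit. Computed here were the test's own change and its interval, counts, medians, motif matches and 3' end copies (Python 3.11.15, pandas 2.3.3, and BLAST). The code of the interval and re-adjustment steps was checked on simulated normal scores with a known standard error. The symbol step was checked on a small made-up table. These checks bear on the code and not on how well the intervals hold for 3 libraries per genotype. Of the table's identifiers 14622 match GENCODE M21 (GRCm38) with their version, and 55 of the 60 members do; coordinates are from that annotation. Members, classes and lists were chosen with earlier results of these data known. Named are all polymerase I genes, members with an unadjusted p under 0.05, the highest and lowest 2 statistics of each other class and the extreme log2 changes, plus the 2 smallest p per direction of the other pathway genes. Other members are given to complete their complex or class, and Ttf1, Polr1d, Glrx2 and the marker genes were named after their values were seen. Alternatives covered the pseudocount, the form of change, filters, p adjustment, scaling and class membership.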

Additional observations from a re-analysis of the deposited data

How the results depend on the processing

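The median log2 change of the 60 members lay between 0.23 (pseudocount 5) and 0.33 (members of at least 10 TPM). The polymerase I median of 0.18 became 0.46 under the test's own change, 0.41 with Mybbp1a and Ddx21 counted in, and -0.12 on members of at least 10 TPM, where only Polr1c is left, so no size or direction is read from it. Without Mybbp1a and Ddx21 the median of the nucleolar proteins with several roles was 0.14. The other pathway genes had a median of 0.14 with pseudocount 5, and mitochondrial ribosomal proteins one of 0.15 under the test's own change. The other medians kept their sign and lay within 1.5 times their value. Some alternatives could change nothing or little by construction: no member symbol repeats, all members exceed 2 TPM, and rescaling without globin, neutrophil and mitochondrial transcripts shifts every gene by only 0.01 on the log2 scale. A pseudocount cannot turn the sign of a single gene. Under the test's own change 58 members kept their sign and 2 did not, Wdr12 at 0.13 and Utp20 at -0.03, and the cause was not tested. With p adjusted again over genes of at least 1 or at least 10 TPM, 1 member, Gtpbp4, was called each time (adjusted p 0.024 and 0.014), and with a threshold of 0.1 also 1. At an unadjusted p under 0.01 there were 9 members. The share of all genes at that limit was not computed, so this count has no background beside it. Leaving out members with a 3' end copy or on chromosome 2 was chosen after seeing the data. No paired analysis was possible because the table holds no values per library. For the same reason leaving out each library and DESeq2 were not run.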
